A study of Mus musculus with 3 samples.

Results

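Described here are 10 genes of the AP-1 and immediate early response in sorted mouse skin epithelial cells: Fos, Fosb, Fosl1, Fosl2, Jun, Junb, Jund, Atf3, Egr1 and Ier2. They were chosen by symbol as the Fos family, the Jun family and 3 immediate early regulators, and all 10 were found among 44548 genes in the deposited table. Levels are given as TPM, a unit that corrects counts for gene length and library size. A gene is called detected where its mean TPM is 1 or more, which held for all 10 members and for 13663 genes in total. The table holds polyadenylated RNA from 3 libraries, numbered replicates 1 to 3, of wild-type mice at 56 days of age. The cells were positive for integrin alpha6 and negative for Sca1 by sorting, and came from back skin in the second telogen, the resting phase of the hair cycle. Skin was incubated in 0.8% trypsin for 50 minutes at 37 °C before sorting, per the labels' protocols, and this step was common to all 3 libraries. The labels speak of biological duplicates while 3 libraries are listed, so spread between libraries may be partly technical. With 1 group there was no contrast between conditions, and a two-sided exact sign-flip permutation test over 3 libraries cannot give a p below 0.25.

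Fos and Jun proteins are basic leucine zipper (bZIP) transcription factors that bind DNA as AP-1 dimers. Jun proteins can pair with each other, whereas Fos proteins need a partner from the Jun family or another bZIP protein. Most of the genes are transcribed within minutes of growth factor, stress or wounding signals, which reach them through MAP kinases, and their mRNAs are short-lived. In epidermis AP-1 is known for roles in keratinocyte proliferation and differentiation. Several of these mRNAs are also known to accumulate while tissue is dissociated with enzymes at warm temperature. Every library was digested, so levels present in the skin and levels acquired during isolation cannot be told apart here.

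The promoters of 5 of the most abundant members are shown because CREB/ATF and AP-1 type sites there are the known entry points of fast induction. Each is the 150 bases before the RefSeq transcription start on GRCm38.p6, 5′ to 3′ in the direction of the gene. Capitals mark the core TGACG or its reverse complement CGTCA, in Jun the octamer TGACATCA, and in Fos also TATAA. The regions are chr12:85473740-85473889 (plus strand) for Fos, chr7:19310046-19310195 (minus) for Fosb, chr4:95052223-95052372 (minus) for Jun, chr8:84978749-84978898 (minus) for Junb and chr1:191183334-191183483 (minus) for Atf3.
Fos: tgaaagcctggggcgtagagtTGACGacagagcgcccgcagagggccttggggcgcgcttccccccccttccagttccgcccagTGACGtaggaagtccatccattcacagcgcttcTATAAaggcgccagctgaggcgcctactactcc
Fosb: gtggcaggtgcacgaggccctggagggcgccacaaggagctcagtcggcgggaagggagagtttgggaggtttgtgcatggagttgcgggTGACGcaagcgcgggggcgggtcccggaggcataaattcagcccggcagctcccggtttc
Jun: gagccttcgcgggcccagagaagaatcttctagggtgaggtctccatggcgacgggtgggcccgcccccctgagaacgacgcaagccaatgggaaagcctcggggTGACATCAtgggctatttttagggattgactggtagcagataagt
Junb: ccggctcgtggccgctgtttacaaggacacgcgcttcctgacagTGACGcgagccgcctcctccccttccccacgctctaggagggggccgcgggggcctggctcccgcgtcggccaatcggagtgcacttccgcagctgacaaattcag
Atf3: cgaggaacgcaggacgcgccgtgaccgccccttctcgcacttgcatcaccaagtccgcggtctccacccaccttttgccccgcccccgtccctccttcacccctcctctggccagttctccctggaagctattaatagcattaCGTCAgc
RefSeq promoters were found for 7 of the 10 members, and those of Fosl1, Egr1 and Ier2 were not used here. The RefSeq start is not always the start of the GENCODE gene. The Jund window ends at chr8:70697738, before the GENCODE start at 70698949. The Atf3 and Fosl2 windows lie inside the GENCODE gene spans, downstream of their starts. Which start these cells use was not tested. Searched on both strands, TGACG was found in 4 of the 7 (Fos, Fosb, Junb and Atf3), and 13.3% of 32851 promoters of the same length hold it. The core contains a CpG, 6 of the 7 members' promoters exceed the median promoter GC of 54%, and of the 16051 promoters above that median 18.8% hold it. In Fos it lay 129 to 125 and 66 to 62 bases before the start, in Fosb 60 to 56, in Junb 106 to 102 and in Atf3 7 to 3. The full palindrome TGACGTCA, which begins with that core, was in 0 of the 7 and in 1.36% of all promoters. The AP-1 motif TGANTCA was in 0 of the 7 and in 4.24% of all. The octamer TGACATCA, an AP-1-like site chosen after the sequence was seen, was in Jun at 45 to 38 bases before the start and in 2.32% of all promoters. CCAAT, on either strand, was in Jun and Junb and in 24.5% of all. TATAA, on the gene's strand alone, was in Fos at 33 to 29 bases before the start and in 9.99% of all. A CArG box, the binding site of serum response factor, was in 0 of the 7 and in 0.916% of all, and the known serum response element of Fos lies farther upstream than this window. These matches describe letters, not binding.

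The libraries held 29283936 to 39198620 counts. The labelled cell type was checked against its markers: Krt15, a keratin of bulge and basal cells, had a mean of 23208 ± 3176 TPM (SD, n = 3), and all 8 hair follicle stem cell markers and all 5 basal keratinocyte markers were detected. The endothelial markers Cdh5, Cldn5 and Emcn and the fibroblast marker Lum had 0 counts in all 3 libraries. The fourth endothelial marker, Pecam1, had 14, 17 and 31 counts, and the list summed to 0.199 to 0.323 TPM. The 5 sebaceous gland markers summed to 174.3, 203 and 269 TPM in replicates 1, 2 and 3. The 6 fibroblast markers summed to 18.0 to 45.3 TPM, the 6 immune markers to 11.2 to 20.1 and the 5 melanocyte markers to 13.1 to 15.5. The 5 suprabasal keratinocyte markers, which mark differentiating cells, summed to 1648 TPM in replicate 1, 3144 in replicate 2 and 5017 in replicate 3. In bulk RNA, fewer cells of a type and less RNA per cell cannot be told apart.

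Fos (ENSMUSG00000021250, chr12:85473890-85477273, plus strand, GRCm38 in GENCODE M21) was the most abundant member. It is the inducible Fos family subunit for which the family is named. Fos had 10120 TPM in replicate 1, 5406 in replicate 2 and 4269 in replicate 3, a mean of 6598 ± 3102 (SD, n = 3). The 3 values rest on 256559, 174116 and 154848 counts. By TPM its rank among all genes was 8, 16 and 31 in replicates 1, 2 and 3, and 14 by mean. Replicate 1 stood apart for Fos, at 2.37 times the lowest library.

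Fosb (chr7:19302696-19310051, minus) encodes a second inducible Fos subunit, known also for a stable splice form that this table by gene does not separate. Its TPM was 2107, 2538 and 1513 in replicates 1, 2 and 3, a mean of 2053 ± 515 (SD, n = 3), on 141790, 216952 and 145658 counts. Unlike Fos, Fosb was highest in replicate 2. Fosl2 (chr5:32135801-32157842, plus) and Fosl1 (chr19:5447547-5455946, plus) encode Fra-2 and Fra-1, Fos relatives that lack the strong transactivation domain of Fos and usually accumulate later. Fosl2 had 66.1, 64.2 and 57.5 TPM, a mean of 62.6 ± 4.54 (SD, n = 3). Fosl1 had 36.1, 43.0 and 38.6 TPM, a mean of 39.3 ± 3.52 (SD, n = 3), on 664 to 1017 counts. Both were far below Fos in each library: Fos minus Fosl2 was 7.24, 6.37 and 6.19 on the log2(TPM + 1) scale. By GENCODE M21, 1163 of the 2033 exon bases of Fosl1 overlap exons of Ccdc85b on the opposite strand. The deposited length of Fosl1 is 1707 bases, so its counts rest on another gene model and the overlap there may differ. Ccdc85b itself had 675 to 1422 counts, the strand setting of the counting is not given in the sources used here, and the Fosl1 value is therefore uncertain.

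Jun (chr4:95049034-95052222, minus) was the second most abundant member by mean. It is the classical partner of Fos and can also bind as a homodimer. Jun had 3678, 1944 and 1179 TPM in replicates 1, 2 and 3, a mean of 2267 ± 1280 (SD, n = 3), on 126419, 84891 and 58008 counts. It had the widest spread of the members, 3.12 times between its highest and lowest library, and its mean without replicate 1 was 1562 TPM. Junb (chr8:84974484-84978718, minus), an inducible Jun relative that can restrain Jun, had 1528, 1152 and 853 TPM, a mean of 1178 ± 338 (SD, n = 3). Jund (chr8:70698949-70700616, plus), the family member usually described as constitutively transcribed, had 635, 470 and 335 TPM, a mean of 480 ± 150 (SD, n = 3). In all 3 Jun genes replicate 1 was highest and replicate 3 lowest. Of the antisense neighbours, Junos, which shares 232 exon bases with Jun, had 39 to 71 counts, and Gm11175, which shares 877 with Jund, had 0. Junb shares 173 of its 2301 exon bases with Prdx2 on the opposite strand, which had 5153 to 7579 counts, so reads there cannot be assigned.

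**Figure D1:**
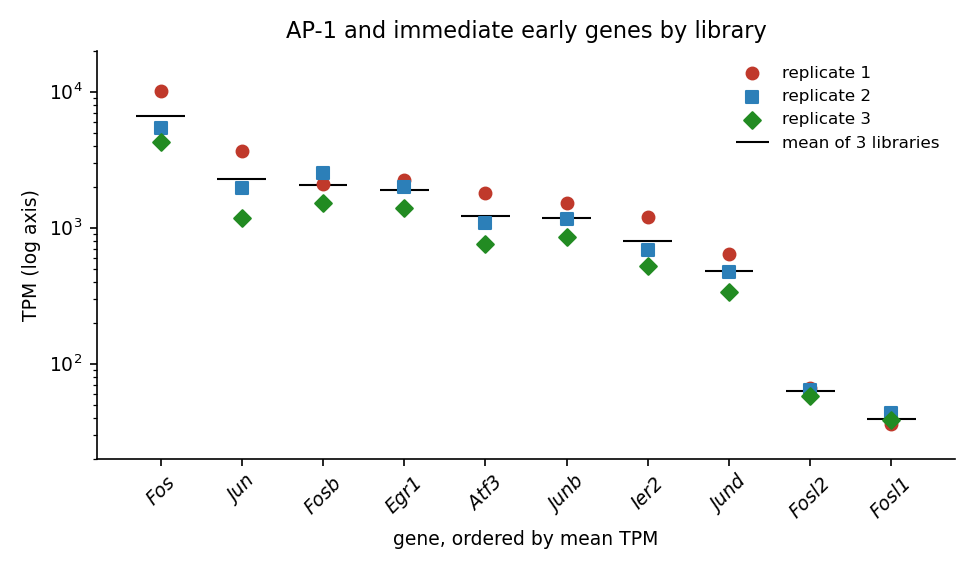
TPM (log axis) of the 10 genes in each of 3 libraries, ordered by mean, where points are libraries and black bars the mean of 3. Fos lies highest at 4269 to 10120 TPM, 8 genes exceed 300 TPM in every library, and Fosl2 and Fosl1 lie below 70.

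Egr1 (chr18:34859823-34864984, plus) is a zinc finger transcription factor, not a bZIP protein, and is induced by the same kinases. Its TPM was 2242, 2001 and 1402 in replicates 1, 2 and 3, a mean of 1882 ± 433 (SD, n = 3), on 108376, 122866 and 96983 counts. Atf3 (chr1:191170296-191218039, minus), a stress-induced bZIP factor that pairs with Jun proteins, had 1789, 1082 and 759 TPM, a mean of 1210 ± 527 (SD, n = 3). Ier2 (chr8:84661331-84662852, minus), an immediate early nuclear protein, had 1202, 688 and 523 TPM, a mean of 804 ± 354 (SD, n = 3). For all 3 of these genes replicate 1 was highest and replicate 3 lowest, with Egr1 the narrowest at 1.60 times between them and highest in replicate 2 under TMM or upper-quartile scaling.

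By mean TPM the order was Fos, Jun, Fosb, Egr1, Atf3, Junb, Ier2, Jund, Fosl2 and Fosl1. Of the 9 neighbouring pairs, 6 differed in the same direction in 3 of 3 libraries (two-sided exact sign-flip permutation test over 3 libraries, p = 0.25 each, the smallest possible, and 0.375 after Benjamini-Hochberg adjustment over the 9). The pairs were set by the mean of the same 3 libraries, which itself favours a shared direction. The widest step was Jund above Fosl2, by 2.87 ± 0.36 on the log2(TPM + 1) scale (SD, n = 3). For 3 pairs the sign was not shared. Jun minus Fosb was 0.80, -0.38 and -0.36 in replicates 1, 2 and 3. Fosb minus Egr1 was -0.09, 0.34 and 0.11, and Atf3 minus Junb was 0.23, -0.09 and -0.17. Without replicate 1 the order became Fos, Fosb, Egr1, Jun, Junb, Atf3, Ier2, Jund, Fosl2 and Fosl1, and all 9 pairs had 1 sign in both remaining libraries, so Jun's place above Fosb and Egr1 rested on replicate 1. Without replicate 2, Egr1 came before Fosb.

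Fos family transcripts were more abundant than Jun family transcripts in each library. The 4 Fos genes summed to 12329, 8052 and 5877 TPM, and the 3 Jun genes to 5840, 3566 and 2367. The log2 ratio of the sums was 1.08, 1.17 and 1.31, a mean of 1.19 ± 0.12 (SD, n = 3), or 2.28-fold (two-sided exact sign-flip permutation test, p = 0.25, Fos family higher in 3 of 3 libraries). The ratio varied less between libraries than either sum did. Within the Fos family, Fos made up 82.1%, 67.1% and 72.6% of the summed TPM in replicates 1, 2 and 3, and Fosb 17.1%, 31.5% and 25.7%. Fosl1 and Fosl2 made up means of 0.495% and 0.771%. Within the Jun family, Jun made up 63.0%, 54.5% and 49.8%, Junb 26.2%, 32.3% and 36.0%, and Jund 10.9%, 13.2% and 14.1%. In both families the most abundant gene had its largest share in replicate 1.

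**Figure D2:**
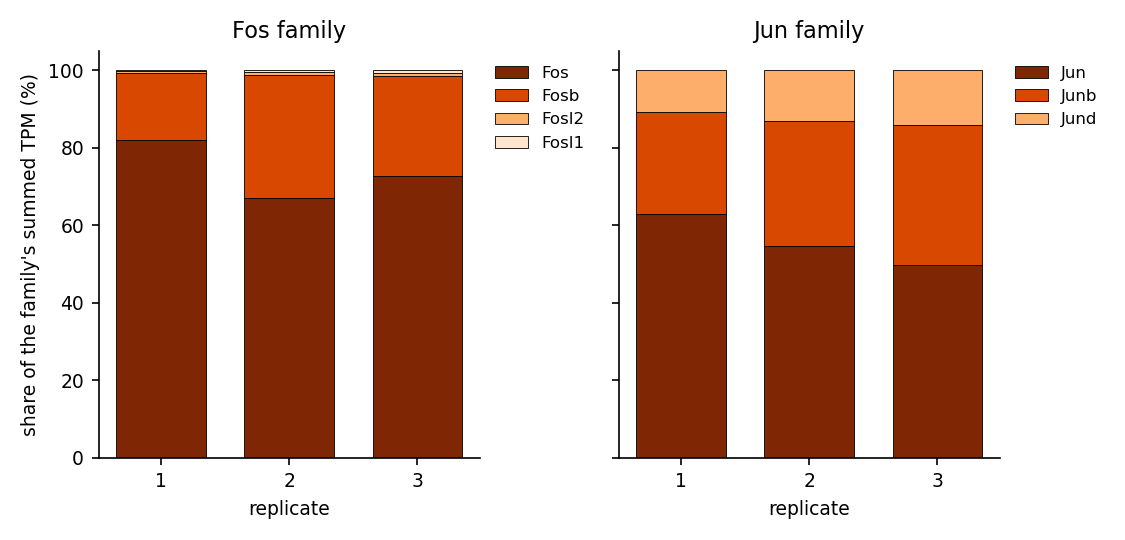
Share of the summed TPM (%) of the Fos family (left) and the Jun family (right) held by each gene in each of 3 libraries, where each stacked bar is a library. Fos holds 67.1% to 82.1% of its family and Jun 49.8% to 63.0% of its own, each with the highest share in replicate 1.

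Replicate 1 gave 2.57% of its counts to the 10 genes, with a 95% Wilson interval from 2.56 to 2.57. Replicate 2 gave them 1.99%, between 1.98 and 1.99 by the same method, and replicate 3 gave 1.38%, between 1.38 and 1.39. The intervals cover counting error only and do not overlap. Fos alone took 0.876%, 0.494% and 0.395%. By mean, 134 genes reached 1000 TPM, 6 of them members: Fos, Jun, Fosb, Egr1, Atf3 and Junb. In single libraries 7, 6 and 4 members reached that level in replicates 1, 2 and 3. At a mean of at least 100 TPM there were 1219 genes and 8 members, all but Fosl2 and Fosl1.

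Members varied more between libraries than other genes at their level, except the 2 least abundant. The SD of log2(TPM + 1) over 3 libraries was above the median of genes in the same class for 6 of 6 members with a mean of at least 1000 TPM. Their median SD was 0.52, against 0.16 for all 134 genes of that class. Both members between 100 and 1000 TPM, Ier2 and Jund, lay above their class too, with a median of 0.54 against 0.17. Between 10 and 100 TPM, neither Fosl2 nor Fosl1 did, with a median of 0.11 against 0.23. No test was made of these counts.

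The spread had a direction shared by most members. Replicate 1 was highest for 8 of 10 members, against 59.6% of the 13663 detected genes. Replicate 3 was lowest for 9 of 10, against 40.6% of those genes. Replicate 1 minus the mean of the other libraries, on the log2(TPM + 1) scale, had a median of 0.65 over the members and of 0.24 over all 13663 genes. The gene values were 1.28 for Jun, 1.07 for Fos, 1.00 for Ier2, 0.98 for Atf3, 0.68 for Jund, 0.62 for Junb, 0.42 for Egr1, 0.12 for Fosl2, 0.10 for Fosb and -0.17 for Fosl1. So 7 members lay above the median of all genes, while Fosl2, Fosb and Fosl1 lay below it.

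The direction depended in part on scaling: TMM scaling of the counts moved the median of all genes from 0.24 to 0.00. With TMM-scaled CPM the members' median was 0.39, and 6 of 10 members were highest in replicate 1, where 42.4% of all genes were. Egr1 and Fosl2 were then highest in replicate 2, and the values of Fosb and Fosl2 changed sign to -0.16 and -0.14. Relative to the median of all genes, Jun stood at 1.04 with TPM and 1.02 with TMM-scaled CPM, Fos at 0.83 and 0.81, and Ier2 at 0.76 and 0.74. The members' median relative to all genes was 0.41 and 0.39. Among the 1219 genes at 100 TPM or more, 35.9% were highest in replicate 1 and their median was -0.06.

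Other lists chosen for this response moved with replicate 1 to different degrees, on the same log2(TPM + 1) scale. All 10 heat shock genes were highest in replicate 1, with a median of 0.82 (0.57 with TMM-scaled CPM). The small heat shock protein gene Hspb1 had 3014, 2172 and 1870 TPM, and Hspa1b, the inducible Hsp70, had 712, 374 and 268. Of 34 other detected immediate early genes, 27 were highest in replicate 1, with a median of 0.60. With TMM-scaled CPM these became 21 and 0.36. Among them Cyr61, which encodes a secreted matrix protein, had 2582, 1100 and 691 TPM. The transcription factor gene Klf4 had 1946, 963 and 797 TPM, and Zfp36, whose product destabilises AU-rich mRNAs, had 1652, 1034 and 739. Nr4a2, an orphan nuclear receptor, went the other way at 7.25, 9.88 and 8.83 TPM.

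Among the other bZIP partners, 11 of 16 were highest in replicate 1, with a median of 0.43 (9 and 0.19 with TMM-scaled CPM). The stress-response factor gene Atf4 had 583, 270 and 291 TPM, and the small Maf genes Maff and Mafk had means of 100.3 and 64.9 TPM. Batf and Nrl, bZIP genes of lymphoid cells and of photoreceptors, had 0 counts in all 3 libraries. Of the kinases and factors upstream of the members, 9 of 20 were highest in replicate 1 and the median was 0.05, below that of all genes, and turned to -0.20 with TMM-scaled CPM. Mapk3, which encodes ERK1, had 244, 304 and 292 TPM, Map2k2 (MEK2) had 63.5, 78.9 and 84.6, and Egfr had 68.4, 73.4 and 57.5. The 5 listed genes of the JNK branch, which phosphorylates Jun, were singled out after their values were seen. By TPM all were highest in replicate 1, as were 59.6% of detected genes: Mapk8 (0.67), Map3k1 (0.62), Mapk9 (0.57), Map2k7 (0.46) and Map2k4 (0.36). Of the same 20 upstream genes, 7 were highest in replicate 2 and 4 in replicate 3. With TMM-scaled CPM 7 of the 20 were highest in replicate 1, and Map2k4 was not among them. Of 12 detected AP-1 target and secondary response genes, 4 were highest in replicate 1 and the median was 0.10, which turned to -0.13 with TMM-scaled CPM. Cd44 had 101, 87.6 and 87.1 TPM, Hbegf (a ligand of the EGF receptor) 53.2, 64.0 and 46.0, and Ccnd1 (cyclin D1) 38.4, 60.3 and 54.7.

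Cell type markers moved beside this. None of the 8 hair follicle stem cell markers or 5 basal keratinocyte markers was highest in replicate 1, with medians of -0.27 and -0.34 on that scale. The median of the 5 suprabasal markers was -0.88. Of these 5, Ivl alone was highest in replicate 1 by TPM, at 0.51, and 0 were with TMM-scaled CPM. Medians over detected markers were -0.46 for 4 sebaceous, -1.20 for 2 fibroblast, -0.55 for 2 immune and -0.06 for 3 melanocyte genes. Among 10 reference genes used for normalisation elsewhere, 6 were highest in replicate 1, with a median of 0.22 that turned to -0.04 with TMM-scaled CPM. The part of cell composition, of digestion and of RNA quality in the members' levels was not tested.

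**Figure D3:**
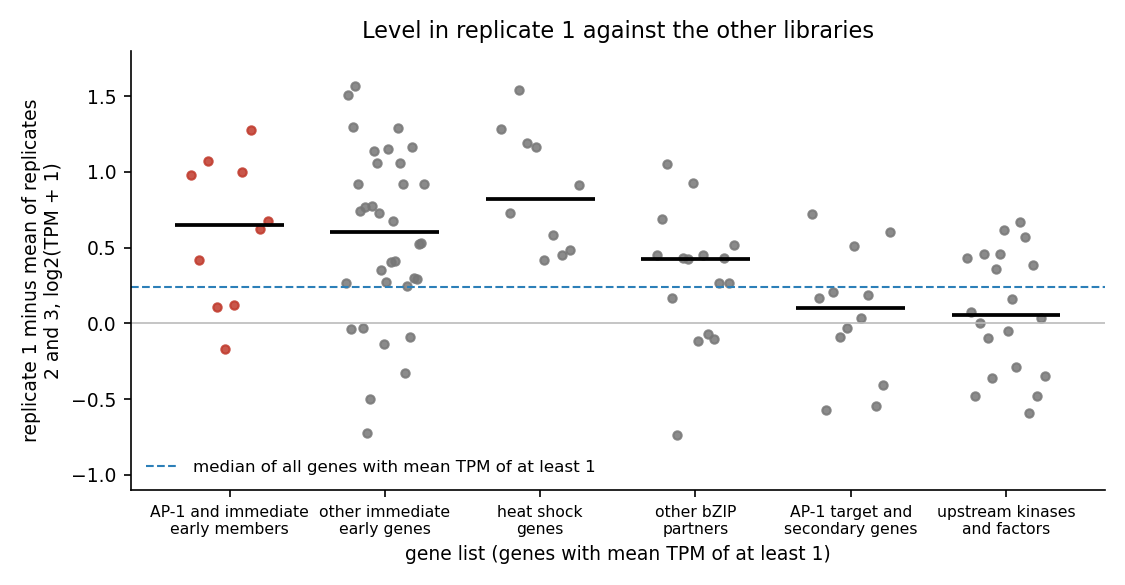
Replicate 1 minus the mean of replicates 2 and 3 in log2(TPM + 1) for each gene (point) of the members and 5 other lists, with the list median (black bar) and the median of all detected genes (dashed, 0.24). Medians of the members (0.65), other immediate early genes (0.60) and heat shock genes (0.82) lie above the dashed line, and that of upstream kinases and factors (0.05, or -0.20 with TMM-scaled CPM) lies below it.

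The genes most like the members over the 3 libraries were sought among 1211 others with a mean of at least 100 TPM, by Euclidean distance to the members' median profile. That profile, in log2(TPM + 1) centred on each gene's mean, was 0.43, 0.01 and -0.45 in replicates 1, 2 and 3. The nearest were Tubb4b, a beta-tubulin gene, at a distance of 0.052, and Mir196a-1, a microRNA gene, at 0.089. Socs3, an inhibitor of cytokine signalling, followed at 0.11, then Efnb2, an ephrin ligand, at 0.11 and Ftl1, the ferritin light chain, at 0.13. Socs3 had 403, 322 and 243 TPM. With 3 libraries such a profile has few degrees of freedom, and likeness in it says nothing of shared control. The members themselves ranged from 0.030 for Junb and Jund to 0.71 for Fosl1, so Fosl1 was the least like its own group. In each library the median profile is the midpoint of Junb and Jund, so their closeness to it is built in. The nearest genes are therefore those nearest that midpoint.

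The authors' deposited table also gives a log2 fold change and adjusted p per gene. From the names of columns not used here it was taken to compare these libraries with bulge libraries. A positive value means higher in the cells described here, since all 2555 genes with a fold change and 0 counts in the 3 libraries had a negative one. Of the 10 members, 7 were higher there at an adjusted p under 0.05, as were 23.6% of 20274 genes. Only Fosl2 was lower, 1 of 10 members, as were 32% of genes. The median log2 fold change was 1.78 over the members and -0.36 over all genes. Those shares include genes silent in these libraries, and they turn round with the level: of 13505 detected genes with an adjusted p, 35.1% were higher and 25.6% lower, with a median of 0.25. Of the 1219 genes at 100 TPM or more, 75% were higher and 7.05% lower, with a median of 1.48. At that level 7 of the 8 members were higher, a share near that of all such genes, so the count of calls does not set the members apart. Choosing genes by their level in these libraries itself favours positive values.

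Jund and Junb had the largest values among the members: in the authors' deposited table Jund was at 5.04 (adjusted p = 4.84e-84) and Junb at 4.79 (adjusted p = 6.56e-74). Ier2, a single-exon gene like the Jun genes, was at 3.93 (adjusted p = 9.71e-53), and Jun at 2.43 (adjusted p = 7.96e-16). Of the Fos family, Fos was at 2.69 (adjusted p = 4.65e-27) and Fosb at 1.13 (adjusted p = 6.27e-06) in the deposited table. Fosl2 was at -0.50 (adjusted p = 0.0128) and Fosl1 at 0.26 (adjusted p = 0.438) in the authors' deposited table. Atf3 was at 0.68 (adjusted p = 0.0120), and Egr1 did not pass the threshold in that deposited table, at 0.22 (adjusted p = 0.422). The order of these fold changes differed from the order of levels: Jund was the 8th of 10 by TPM and had the largest fold change, and Egr1 was the 4th by TPM. At an adjusted p under 0.01, 6 members were higher and 0 lower, as were 19.9% and 26.3% of all genes.

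The deposited fold change moved with GC content across the whole table. Over 20207 genes the Spearman correlation between transcript GC and the authors' deposited log2 fold change was 0.45, and 0.41 over the 1219 genes with a mean of at least 100 TPM. These are correlations across genes of the same libraries, which are not independent replicates. With genes in 10 bins of equal size by GC, the median deposited log2 fold change ran from -1.68 in the lowest to 1.31 in the highest, and the share called higher from 3.71% to 53.8%. All 10 members lay above the median GC of 49.0%, and 7 of them were in the top 2 bins. GC was 67.1% for Jund, 62.6% for Junb, 60.9% for Ier2, 58.5% for Fosl1, 57.3% for Egr1, 56.0% for Fosb, 55.5% for Jun, 53.1% for Fosl2, 52.2% for Atf3 and 51.9% for Fos.

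Set against the median of its own GC bin, the deposited log2 fold change stood 3.73 higher for Jund, 3.48 for Junb, 2.64 for Fos, 2.62 for Ier2, 1.50 for Jun, 0.64 for Atf3 and 0.20 for Fosb. For Egr1 the difference was -0.71, for Fosl2 -0.96 and for Fosl1 -1.05. The median over the members was 1.07, against 1.78 without regard to GC. Above the upper quartile of their GC bin lay 5 members: Jund, Junb, Fos, Ier2 and Jun. These bins mix silent and expressed genes, so the 8 members at 100 TPM or more were also set against genes of that level in the same bins, 144 to 191 genes each. Jund then stood 2.77 above the bin median, Junb 2.51, Ier2 1.66, Fos 1.33 and Jun 0.40, and Jun no longer lay above the upper quartile. Atf3, at -0.67, and Fosb, at -0.89, turned to below the median of genes of like GC and level, and Egr1 stood at -1.81. Members were also short, with a median length of 2326.5 bases against 3586 for detected genes. Jun, Junb, Jund and Ier2 have 1 exon each, as do 14.0% of detected genes. The part of GC content, length and exon number in the fold changes was not tested.

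**Figure D4:**
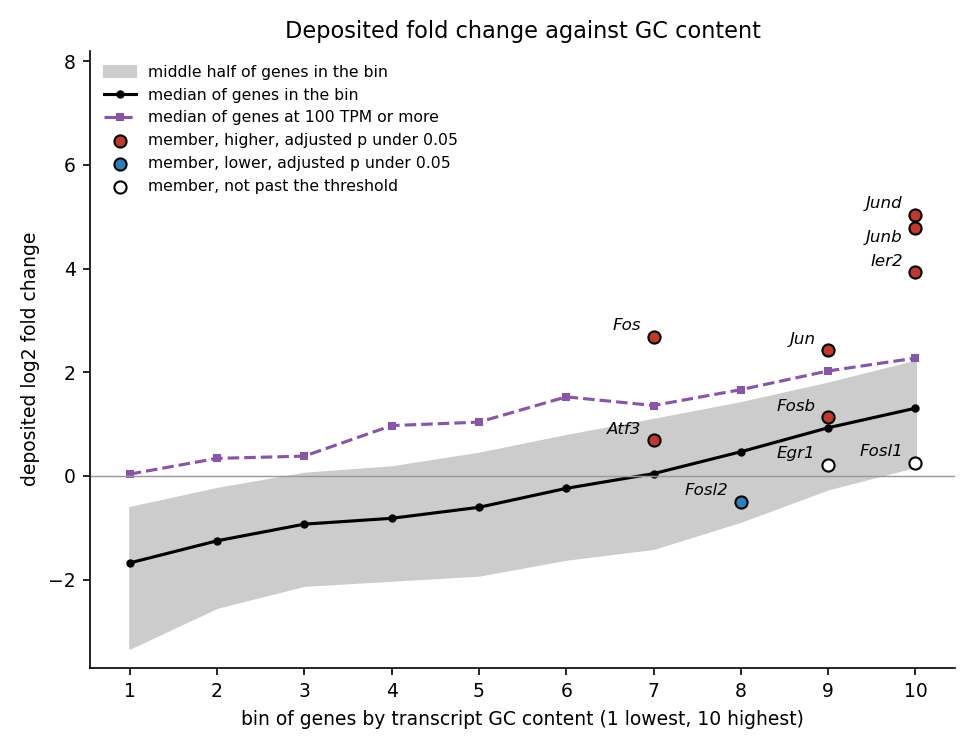
The authors' deposited log2 fold change of the 10 members (points, coloured by call) by bin of genes in transcript GC content, with the median (black line) and middle 50% (grey band) of all genes in each bin and the median of genes at 100 TPM or more (dashed). The black line runs from -1.68 to 1.31 and the dashed from 0.04 to 2.27. Jund, Junb, Ier2, Fos and Jun lie above both lines, and Atf3 and Fosb between them.

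In the same deposited comparison, 20 of 34 other immediate early genes were higher and 7 lower, with a median log2 fold change of 1.01. Over detected genes 35.1% were higher and 25.6% lower, with a median of 0.25. At 100 TPM or more 75% were higher and 7.05% lower, with a median of 1.48. The list's median level was 129.7 TPM, so the count of calls does not set it apart. Ier5l, an immediate early gene related to Ier5, had the list's highest fold change at 5.36 (adjusted p = 9.17e-40) in the authors' deposited table. Nr4a2 had its lowest at -2.32 (adjusted p = 3.84e-10) in the same deposited table. Of 16 other bZIP partners with an adjusted p, 6 were higher and 6 lower. Among them Mafa was at 3.31 (adjusted p = 0.00885), on only 31 to 52 counts, and Atf7 at -2.28 (adjusted p = 1.43e-31) in the deposited table. Upstream kinases and factors had 6 higher and 8 lower of 20, beside the same 35.1% and 25.6% of detected genes, with Map2k2 at 1.75 (adjusted p = 1.34e-10) and Rps6ka3 at -2.12 (adjusted p = 4.99e-26) in the deposited table.

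Of 18 AP-1 target and secondary response genes with an adjusted p in the deposited table, 5 were higher, 2 lower and 11 did not pass. Of all 20274 genes there, 23.6% were higher and 32% lower, so the count higher lies near the share of all genes. Ivl, which encodes the cornified envelope protein involucrin and is also in the suprabasal list, was at 3.17 (adjusted p = 3.36e-11). Hbegf was higher at 2.07 (adjusted p = 1.30e-12) and Cd44 lower at -0.96 (adjusted p = 3.85e-08). Mmp13, a collagenase and well-known AP-1 target, had 0 counts in the 3 libraries and was called lower in the deposited table. Heat shock genes, at a median of 190 TPM, had 5 higher and 2 lower of 10. The shares were 35.1% higher and 25.6% lower over detected genes, and 75% and 7.05% at 100 TPM or more. In the deposited table Hspb1 was at 2.34 (adjusted p = 3.84e-30) and the co-chaperone gene Dnaja1 at -2.11 (adjusted p = 7.10e-11). Hspb1 has a GC content of 61.7% and Dnaja1 of 41.2%. All 5 suprabasal markers were also higher in the deposited table, with a median of 3.17. Of detected genes 35.1% were higher, and of genes at 100 TPM or more 75% were, with a median of 1.48. The part of differentiating cells in the members' fold changes was not tested.

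The deposited table finally has a column named for H3K27me3, a histone mark found on repressed genes, whose unit and source cells are not given in the sources used here. It was 0 for 9 of the 10 members. The exception was Fosl1, the least abundant, at 3164. Of all genes in the table, 3597 had a value above 0.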

How the data were processed

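Polyadenylated RNA was sequenced in 3 libraries of 1 group, taken from the labels. Per the submitters' processing notes, TopHat2, SAMtools, FastQC, DESeq and DESeq2 were used and the builds were mm10 and GRCm38. Versions, counting tool, strand setting and annotation are not given in the sources used here. Per the file headers, the authors deposited read counts (whole numbers) and TPM for each gene. TPM recomputed from counts and deposited length differed by at most 4.72e-06. The authors also deposited a log2 fold change and an adjusted p-value per gene, per the file headers. The deposited H3K27me3 value is of unstated unit. Another 6 columns of per-sample values match no sample here and were not used.

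Of 44625 entries, 44548 remained by symbol, and 44392 identifiers were found in GENCODE M21. Levels were compared as log2(TPM + 1), without a filter for members and with a mean TPM of at least 1 for backgrounds. TMM factors came from edgeR 4.0.16 (R 4.3.3), with no test between groups. Fos against Jun sums and neighbouring members were tested by exact sign-flip permutation over libraries. Simulated counts were used to check the ratio of replicate 1 to the others, the highest library and the profile distance, not these sums or pairs. Members and lists were chosen with earlier results of these data known. From each list, the 3 genes highest in mean TPM and those with the highest and lowest passing deposited fold change could be named, plus the 5 genes nearest in profile. Alternatives were another pseudocount, TMM and upper-quartile scaling, other filters, leaving out each library and stricter deposited thresholds. The alternatives without each library for the count of members at 1000 TPM, the GC comparison and the backgrounds by level in the deposited comparison were chosen after seeing the data.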

Additional observations from a re-analysis of the deposited data

How the results depend on the processing

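The Fos family lay above the Jun family under each alternative run, with a mean log2 ratio of 1.13 to 1.24 leaving out 1 library at a time and 1.50 with TMM-scaled CPM, which is not per length. Neighbouring members with 1 sign in each library numbered 6, or 9 without replicate 1. Members with a mean TPM of at least 1000 numbered 5 without replicate 1 and 6 otherwise. The members higher in the authors' deposited table fell from 7 to 6 at an adjusted p under 0.01, and also when a log2 fold change beyond 1 was asked. Of all genes, 19.9% and 19.0% were higher under these 2 alternatives, and 26.3% and 27.3% lower. Members lower in the deposited table numbered 0 under either threshold, in place of 1, since Fosl2 passes neither. TMM-scaled CPM, which changes both the library scaling and the division by length, moved the level of 6 members by over 1 SD. Against genes of like GC, the deposited log2 fold change turned from above to below the bin median for Fosb, to -0.11 among detected genes and -0.89 among those at 100 TPM or more, and for Atf3 to -0.67 among the latter. No paired analysis was possible because there is 1 group. Among the limits are 3 libraries whose independence is unclear and a comparison whose other libraries were not used.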
